A study of Mus musculus with 10 samples.

Results

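The immediate early genes examined here were Fos, Fosb, Jun, Junb, Egr1, Ier2, Ier3, Btg2, Dusp1 and Zfp36. They were found by their symbols in the deposited gene lists, where they were 10 of 31053 gene rows. The gene identifiers in the files were ENSMUSG00000021250 (Fos), ENSMUSG00000003545 (Fosb), ENSMUSG00000052684 (Jun), ENSMUSG00000052837 (Junb), ENSMUSG00000038418 (Egr1), ENSMUSG00000053560 (Ier2), ENSMUSG00000003541 (Ier3), ENSMUSG00000020423 (Btg2), ENSMUSG00000024190 (Dusp1) and ENSMUSG00000044786 (Zfp36). Frozen mouse liver sections of 10 µm were placed on Visium slides, on which barcoded spots capture polyadenylated RNA and each captured molecule is counted as a unique molecular identifier (UMI). Of the 7 tissues, NEJ146 was measured in 4 sections, while NEJ634, NEJ687, NEJ723, NEJ638, NEJ654 and NEJ677 were measured in a single section. The model is the Alb-Cre;CAG-Myc (ABC-Myc) mouse on a C57BL/6J background, in which Cre driven by albumin sequences removes a floxed STOP cassette and so switches on human MYC in cells of the hepatocyte lineage. The labels call every section hepatoblastoma, while the shared protocol of the 6 singly measured tissues mentions both tumour and normal liver and assigns neither to a section, and the study's text names NEJ634, NEJ687, NEJ723 and NEJ146 as tumours and speaks of 3 healthy livers. The tissues were thus treated as separate groups, and tumour was not compared with liver. The ages of the mice and the genotype of the healthy livers were not given for single sections. Per the study's methods, tissue was taken into cold medium after perfusion with a collagenase solution, then flash frozen. The human MYC transgene is not a gene of its own in the count tables, so that mouse Myc is no measure of the driver.

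Immediate early genes are transcribed within minutes of a stimulus such as a growth factor, stress or injury, without the need for new protein synthesis, and most of their mRNAs are short-lived. Serum response factor with its ternary complex partners, which bind CArG boxes, and CREB, which binds cAMP response elements, are the best known activators of these genes. Some of the products are transcription factors, such as the AP-1 subunits and Egr1, while others, such as Dusp1 and Zfp36, shut the response down again. In liver they are known for their quick rise after partial hepatectomy.

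The promoters of members that differed between the zones of the liver lobule are shown for the response elements they carry. For 8 of the 10 members a RefSeq promoter of build GRCm38.p6 was matched by symbol, and Egr1 and Ier2 were without one in the table used. Each line gives the 250 bases that end just before the annotated start, 5′ to 3′ on the strand of the gene. Capitals mark the cAMP response element TGACGTCA, a CArG box, the AP-1 site TGANTCA or the EGR site GCGNGGGCG, each searched on both strands. The Btg2 sequence lies at chr1:134079156-134079405 (minus strand), Dusp1 at chr17:26508473-26508722 (minus strand), Zfp36 at chr7:28379229-28379478 (minus strand) and Junb at chr8:84978749-84978998 (minus strand).
Btg2: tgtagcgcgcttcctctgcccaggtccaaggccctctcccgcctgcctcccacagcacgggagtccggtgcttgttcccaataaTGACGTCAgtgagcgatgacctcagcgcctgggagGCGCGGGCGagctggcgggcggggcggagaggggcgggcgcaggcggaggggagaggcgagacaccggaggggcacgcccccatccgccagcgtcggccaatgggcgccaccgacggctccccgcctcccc
Dusp1: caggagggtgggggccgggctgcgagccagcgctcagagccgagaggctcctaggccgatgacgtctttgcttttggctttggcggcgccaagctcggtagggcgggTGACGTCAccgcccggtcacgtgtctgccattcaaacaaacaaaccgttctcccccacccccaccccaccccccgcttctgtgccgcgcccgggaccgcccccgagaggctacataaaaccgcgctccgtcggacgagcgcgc
Zfp36: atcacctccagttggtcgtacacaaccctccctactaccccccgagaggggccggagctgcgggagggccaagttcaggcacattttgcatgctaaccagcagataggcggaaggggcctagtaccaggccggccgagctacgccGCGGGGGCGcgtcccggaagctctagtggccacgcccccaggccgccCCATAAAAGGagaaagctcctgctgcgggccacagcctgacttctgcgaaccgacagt
Junb: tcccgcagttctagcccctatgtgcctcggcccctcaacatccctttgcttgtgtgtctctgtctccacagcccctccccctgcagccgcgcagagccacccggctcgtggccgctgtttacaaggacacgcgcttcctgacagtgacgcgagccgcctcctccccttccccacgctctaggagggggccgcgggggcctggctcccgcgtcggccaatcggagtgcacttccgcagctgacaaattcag
In Btg2 the capitals are a cAMP response element at 166 to 159 bases before the start and an EGR site at 131 to 123 bases. Dusp1 carries a cAMP response element at 143 to 136 bases. Zfp36 carries an EGR site at 105 to 97 bases and a CArG box at 58 to 49 bases, and the Junb window held none of these motifs. Of 32851 promoter windows of the same length, 1.55% held the cAMP response element, 1.47% a CArG box, 6.75% the AP-1 site and 4.7% the EGR site. Among the 8 member promoters, the first was found in Btg2 and Dusp1, the CArG box in Zfp36, the AP-1 site in none and the EGR site in Btg2, Fosb and Zfp36. A match describes the letters in this window and is neither a shown binding site nor a cause of any level.

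Sections held 39280329 to 117077925 UMIs over 1890 to 4878 tissue spots, with a median of 12133.5 to 28926.5 UMIs per tissue spot. A spot can hold several cells of different types, and fewer cells of a type cannot be told apart from less RNA per cell. Levels are given as CPM, the UMIs of a gene per 1000000 UMIs over tissue spots. The summed level of the hepatocyte markers Alb, Ttr, Apoa1 and Serpina1c was 85091 to 116987 CPM in NEJ638, NEJ654 and NEJ677. It was 13675 to 28577.4 CPM in the sections of the other tissues, so RNA of these markers was detected in each. The sums do not show which cells it came from. NEJ146 stood apart in several ways. Its data came from another software version, its tissue spots were chosen by UMI total and not by a deposited call, and its mitochondrial share of UMIs was 6.78 to 7.22%, against 2.46 to 3.86% in the other tissues. The members summed to 147 to 166.3 CPM in its sections and to 217 to 272 CPM elsewhere, and the part of these technical differences in its lower levels was not tested.

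Among the AP-1 subunits, which pair into dimers that bind DNA, no tissue was highest for all 4. Fos was at 4.21 CPM in NEJ687, 3.48 in NEJ634, 3.48 in NEJ654, 3.34 in NEJ638, 1.96 in NEJ677, 1.79 in NEJ723 and 1.49 ± 0.221 (SD, n = 4 sections of the same tissue) in NEJ146. These values fell into an upper group of 4 tissues and a lower group of 3, and neighbours within each group overlapped. For each member, 2 tissues overlapped where their exact Poisson 95% intervals met, with NEJ146 taken as the wider of the range of its 4 sections and their mean ± 1 SD. Fosb was near the limit of detection, at 0.902 CPM in NEJ634, 0.470 in NEJ687, 0.367 in NEJ723, 0.352 in NEJ638, 0.331 in NEJ677 and 0.236 ± 0.0415 in NEJ146. In NEJ654 only 2 Fosb UMIs were counted, which is 0.0471 CPM with an interval of 0.00570 to 0.170. Jun was at 32.6 CPM in NEJ677, 32.4 in NEJ723, 29.4 in NEJ634, 24.7 in NEJ638, 21.6 in NEJ687, 19.3 ± 1.59 in NEJ146 and 10.8 in NEJ654. By CPM the upper 3 of these overlapped, as did NEJ687 and NEJ146, while NEJ654 was 1.79-fold below the next tissue. Junb was at 36.8 CPM in NEJ687, 31.4 in NEJ634, 25.5 in NEJ723, 24.5 in NEJ638, 19.0 ± 1.91 in NEJ146, 18.3 in NEJ677 and 17.4 in NEJ654. The 3 lowest tissues did not differ beyond their errors for Junb, nor did NEJ723 and NEJ638.

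Egr1, a zinc finger transcription factor, had the widest gap at the top among the members with at least 10 CPM on average. It reached 41.9 CPM in NEJ654 (interval 40.01 to 43.9), and was at 16.5 in NEJ634, 15.6 in NEJ677, 14.7 in NEJ638, 10.9 in NEJ723, 8.65 ± 1.25 in NEJ146 and 5.26 in NEJ687. The level in NEJ654 was 2.54-fold that of the next tissue, and NEJ634, NEJ677 and NEJ638 overlapped, as did NEJ723 and NEJ146. Of 8021 genes that averaged 10 CPM or more, 0.15% were 2-fold higher in NEJ654 than in each other tissue on the log2(CPM + 1) scale, and Egr1 was 1 of these 12. It was singled out after its values were seen. Ier2, an early response nuclear protein, was also highest in NEJ654, at 90.4 CPM, followed by 75.4 in NEJ638, 65.5 in NEJ723, 55.0 in NEJ634, 53.3 in NEJ677, 52.2 in NEJ687 and 42.3 ± 2.56 in NEJ146. Ier2 had a narrow range, with 2.14-fold between its highest and lowest tissue, and NEJ677 overlapped both NEJ634 and NEJ687. Ier3, a stress-induced regulator of cell survival, ran from 16.0 CPM in NEJ723 and 14.8 in NEJ634 over 7.54 ± 1.14 in NEJ146, 7.51 in NEJ687 and 7.21 in NEJ638 to 3.25 in NEJ654 and 1.86 in NEJ677. That is 8.61-fold from top to bottom, with an overlap of the first 2 and of the next 3 tissues.

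Btg2, an antiproliferative cofactor of mRNA deadenylation, was at 34.8 CPM in NEJ687, 27.2 in NEJ723, 25.0 in NEJ634 and 19.6 ± 1.38 in NEJ146. It was lower in NEJ677 (13.0), NEJ638 (13.0) and NEJ654 (7.93), and of these the first 2 overlapped, as did NEJ723 and NEJ634. The feedback genes Dusp1, a phosphatase of MAP kinases, and Zfp36, which encodes the mRNA decay factor tristetraprolin, followed 1 and the same order of tissues by CPM. With size factors by the trimmed mean of M values (TMM), NEJ146 was the lowest tissue for Dusp1 and NEJ723 for Zfp36. Dusp1 was at 42.4 CPM in NEJ638 (interval 40.7 to 44.3), 29.4 in NEJ677, 29.0 in NEJ654, 25.3 in NEJ687, 19.4 in NEJ634, 17.3 in NEJ723 and 13.4 ± 1.13 in NEJ146. Zfp36 was at 66.9 CPM in NEJ638 (interval 64.6 to 69.1), 51.3 in NEJ677, 43.9 in NEJ654, 37.9 in NEJ687, 34.1 in NEJ634, 31.9 in NEJ723 and 25.7 ± 3.21 in NEJ146. NEJ677 and NEJ654 overlapped for Dusp1, as did NEJ634 and NEJ723. For Zfp36 NEJ723 and NEJ634 overlapped, while NEJ723, with an interval from 30.2 CPM, met only the highest of the NEJ146 sections, at 30.3 CPM.

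Thus the members did not share an order of tissues. By CPM, 3 members were highest in NEJ687, 2 in NEJ654, 2 in NEJ638, and 1 each in NEJ634, NEJ723 and NEJ677, while NEJ654 and NEJ146 were each the lowest tissue of 4 members. With the TMM size factors the highest tissue changed for Fos, which became NEJ654, and the lowest tissue changed for Fos, Junb, Ier2 and Zfp36. On that scale Jun in NEJ677 stood 1.55-fold above the next tissue, NEJ638, while by CPM NEJ677 overlapped NEJ723. That scaling moved the median gene furthest in NEJ634, where it dropped by 0.35 on the log2 scale, and NEJ634 against NEJ677 by 0.66, so the order of tissues whose levels lie within 1.58-fold of each other can depend on the scale. Of the 7 members that averaged 10 CPM or more (Jun, Junb, Egr1, Ier2, Btg2, Dusp1 and Zfp36), 5 had a range over the 7 tissues beyond 10 times the spread of the NEJ146 sections, against 62.9% of all 8021 genes. Without NEJ146 these were 4 of 7 members, against 60.7%. The members' shares are close to this background.

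**Figure D1:**
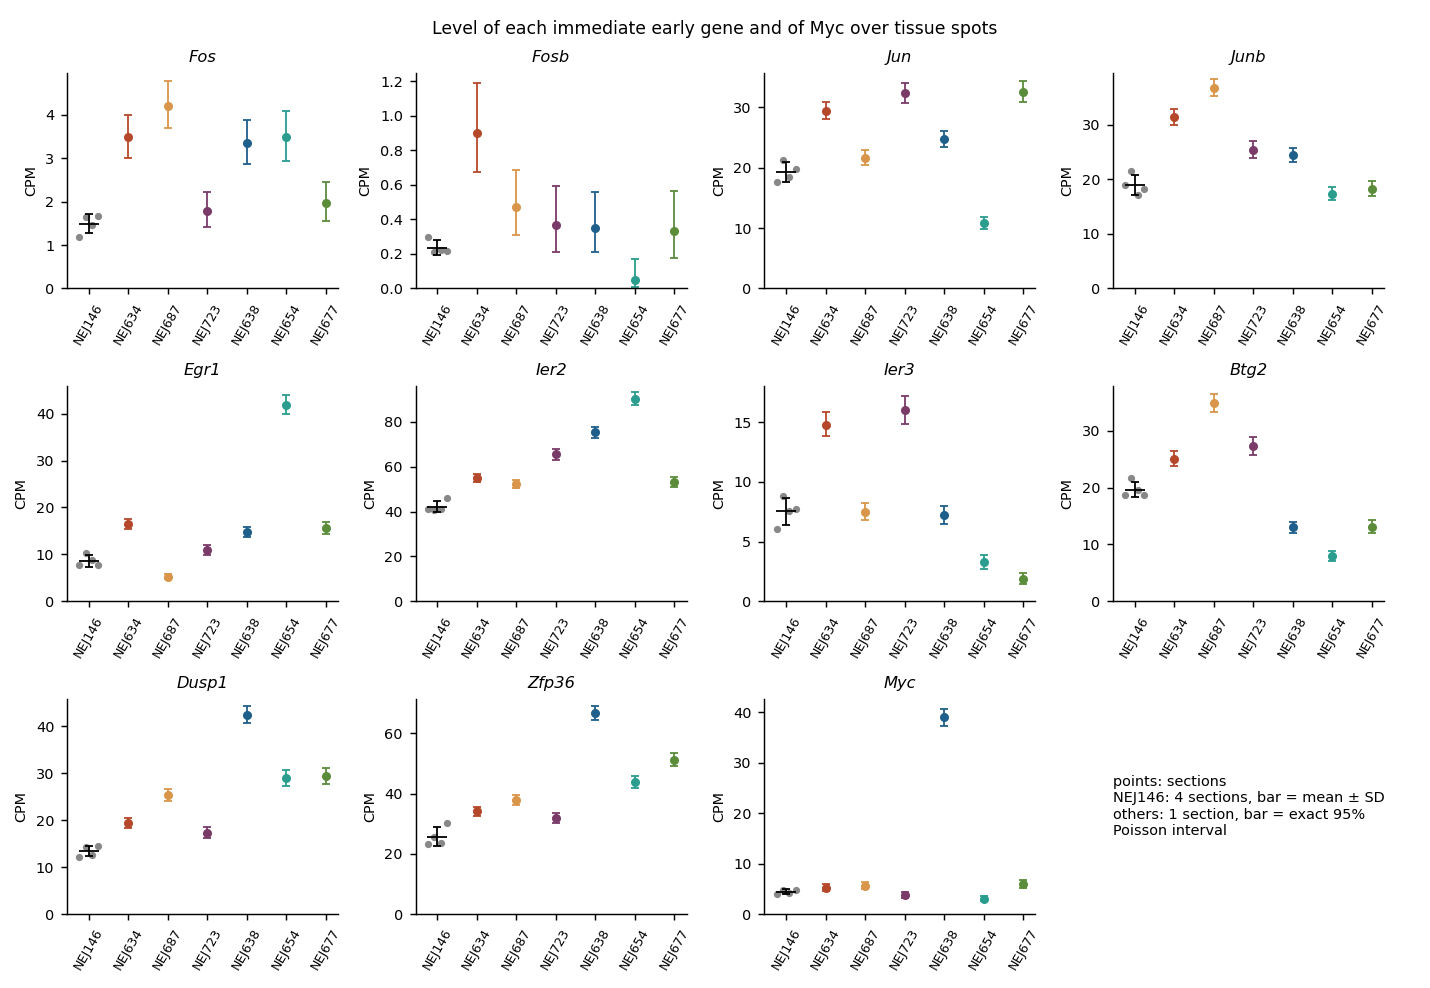
Level in CPM over tissue spots (y axis) of the 10 immediate early genes and mouse Myc in the 7 tissues (x axis). Grey points are the 4 NEJ146 sections with mean ± SD, coloured points are single sections with exact Poisson 95% intervals; Dusp1, Zfp36 and Myc were highest in NEJ638, and Egr1 in NEJ654 at 41.9 CPM.

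Mouse Myc, itself a gene of the early response, was at 39.0 CPM in NEJ638 and at 3.04 to 5.91 CPM in the other tissues, and this excess of 6.60-fold over the next tissue is why NEJ638 was set against the rest. NEJ638 is not among the tissues that the study's text names as tumours. Myc was detected in 42.1% of NEJ638 tissue spots and in 5.11 to 14.4% of those elsewhere. The immediate early genes did not share a rise of that size. By CPM, Dusp1 was 1.45-fold and Zfp36 1.30-fold above the next tissue in NEJ638. Ier2 had rank 2 there, and Fos, Fosb, Jun, Junb and Egr1 had rank 4 of 7. With TMM size factors the leads of Dusp1 and Zfp36 were 1.23-fold and 1.11-fold, and NEJ638 had rank 2 for Jun and Junb. None of the 7 members with at least 10 CPM was 2-fold higher in NEJ638 than in each other tissue, against 0.362% of all genes. Against NEJ654 alone, Jun was higher by over 2-fold in NEJ638 (2.89% of all genes) and Egr1 lower (1.37%). Set against NEJ677 alone, 0 of 7 members passed 2-fold in either direction, where 4.45% of all genes were higher and 1.31% lower in NEJ638. Among 44 other early response genes, 22 averaged 10 CPM or more, and none of these was 2-fold higher in NEJ638 than in each other tissue. Among the 22 with a lower mean, Nr4a1, an orphan nuclear receptor, was at 16.9 CPM in NEJ638 and at 1.27 to 4.28 CPM elsewhere, 3.94-fold above the next tissue. Csrnp1, a nuclear protein of the early response, was at 20.1 CPM in NEJ638 and at 2.88 to 7.10 CPM elsewhere, 2.84-fold above the next. These 2 genes were named after their values were seen, and the share of all genes below 10 CPM that passed 2-fold was not counted. Others of the 22 were far below the highest tissue in NEJ638, such as Dusp2 at 0.684 CPM there and 0.458 to 9.33 CPM elsewhere. With 1 section a tissue, these are comparisons of sections without a test.

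Within tissues, the relation of the members to Myc was tested by comparing spots with at least 1 mouse Myc UMI with as many spots of matched depth without any, summed per tissue. Outside NEJ638 only 5.11 to 14.4% of tissue spots held a Myc UMI, so a spot without one can still hold Myc RNA. The split thus separates high from low Myc levels poorly, and a lack of calls does not settle whether members follow Myc. No member was called in this comparison, and the count of called members was 0 of 9 tested against 0.0156% of all 12802 genes, that is Camp, a neutrophil granule gene that was higher in Myc-positive spots, and Scd2, which was lower. Zfp36 came nearest. It was at a log2 fold change of 0.13 ± 0.05 (SE) and was higher in Myc-positive spots in 6 of 7 tissues, with an adjusted p of 0.444 by edgeR's quasi-likelihood test with Benjamini-Hochberg adjustment and an unadjusted p of 0.0102. In NEJ677, its exception, Zfp36 was at 43.0 CPM in Myc-positive and 50.4 CPM in Myc-zero spots. The log2 fold change of Fos was 0.28 (adjusted p 0.682) and that of Egr1 was 0.12 (adjusted p 0.632) in the same edgeR test. The members' median log2 fold change was 0.09, against -0.00389 over all genes. Fosb had too few UMIs to be tested. Over spots, the correlation of a member's residual with that of Myc, averaged over the 7 tissues, was between -0.00153 (Jun) and 0.0151 (Zfp36), values that are described here without a test because spots of a section share a library and neighbouring tissue. In such sparse counts these are close to 0.

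A difference was found along the liver lobule. Hepatocytes near the central vein and near the portal tract express different enzymes, and spots of NEJ638, NEJ654 and NEJ677 were split into 3 groups of like size by the balance of pericentral markers (Glul, Cyp2e1, Cyp1a2, Oat and Slc1a2) against periportal markers (Cyp2f2, Hal, Hsd17b13, Ass1 and Pck1). Only these tissues were used, which the study's text does not name as tumours. Their summed pericentral markers were at 4185 to 6280 CPM, against 81.4 to 538 CPM in the sections of the other tissues. Of 9 members tested, 6 were higher in periportal than in pericentral spots by edgeR's quasi-likelihood test with the tissue as a block (n = 3 tissues), and none was higher in pericentral spots. In the same test 8.56% of all 12862 genes were higher in periportal and 7.66% in pericentral spots. The 6 were Ier2, Btg2, Egr1, Junb, Dusp1 and Zfp36, and each was higher in periportal spots in 3 of 3 tissues. The members' median log2 fold change was -0.59 (pericentral minus periportal), against 0.000845 over all genes.

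Ier2 differed most clearly in this test. From pericentral over middle to periportal spots it was at 55.9, 80.9 and 93.2 CPM in NEJ638, at 64.6, 96.4 and 113.3 CPM in NEJ654, and at 38.7, 54.8 and 65.4 CPM in NEJ677. So it increased over the 3 groups in each tissue, by 1.75-fold in the fit (log2 fold change -0.81 ± 0.06 SE, adjusted p 2.74e-06 by edgeR). Btg2 went from 9.0 to 16.4 CPM in NEJ638, from 5.55 to 8.98 CPM in NEJ654 and from 9.87 to 13.9 CPM in NEJ677 (log2 fold change -0.73 ± 0.10, adjusted p 0.000424 by edgeR). In NEJ654 and NEJ677 its highest level was in the middle group, at 9.70 and 15.3 CPM. Egr1 was at 12.8, 15.8 and 16.0 CPM in NEJ638, at 27.3, 51.2 and 49.9 CPM in NEJ654, and at 11.7, 17.4 and 17.5 CPM in NEJ677 (log2 fold change -0.68 ± 0.11, adjusted p 0.00131 by edgeR). For Egr1 the middle and periportal spots were alike, and the pericentral spots were the ones that stood lower. The high Egr1 level of NEJ654 was present in all 3 groups of its spots.

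Junb went from 20.8 to 28.1 CPM in NEJ638, from 11.6 to 22.4 CPM in NEJ654 and from 16.5 to 20.8 CPM in NEJ677 (log2 fold change -0.59 ± 0.11, adjusted p 0.00353 by edgeR). Dusp1 went from 36.9 to 47.6 CPM, from 20.6 to 36.4 CPM and from 25.9 to 34.7 CPM in the same tissues (log2 fold change -0.56 ± 0.09, adjusted p 0.00157 by edgeR). For both genes the gap was widest in NEJ654, at 1.93-fold for Junb and 1.76-fold for Dusp1. Zfp36 had the smallest difference of the 6, from 62.2 to 67.4 CPM in NEJ638, from 35.2 to 49.9 CPM in NEJ654 and from 47.5 to 55.4 CPM in NEJ677 (log2 fold change -0.31 ± 0.08, adjusted p 0.0235 by edgeR). It was no longer called without NEJ654, or by DESeq2. The adjusted p of Zfp36 over these and the other settings ran from 0.00496 to 0.203.

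Of the other members, Fos was at 2.39 and 4.49 CPM in pericentral and periportal spots of NEJ638, 2.23 and 4.87 CPM in NEJ654, and 2.12 and 1.38 CPM in NEJ677. NEJ677 thus went the other way, and the edgeR adjusted p of Fos was 0.0843 with all 3 tissues and 0.00319 without NEJ677. Jun had a log2 fold change of -0.04 ± 0.10 (adjusted p 0.839 by edgeR) and Ier3 one of 0.12 ± 0.19 (adjusted p 0.736 by edgeR), with tissues on both sides of 0 for each. Fosb was not tested for want of counts. Mouse Myc was at 38.9 CPM in pericentral and 37.0 CPM in periportal spots of NEJ638, at 3.06 and 3.55 CPM in NEJ654, and at 5.72 and 6.03 CPM in NEJ677.

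**Figure D2:**
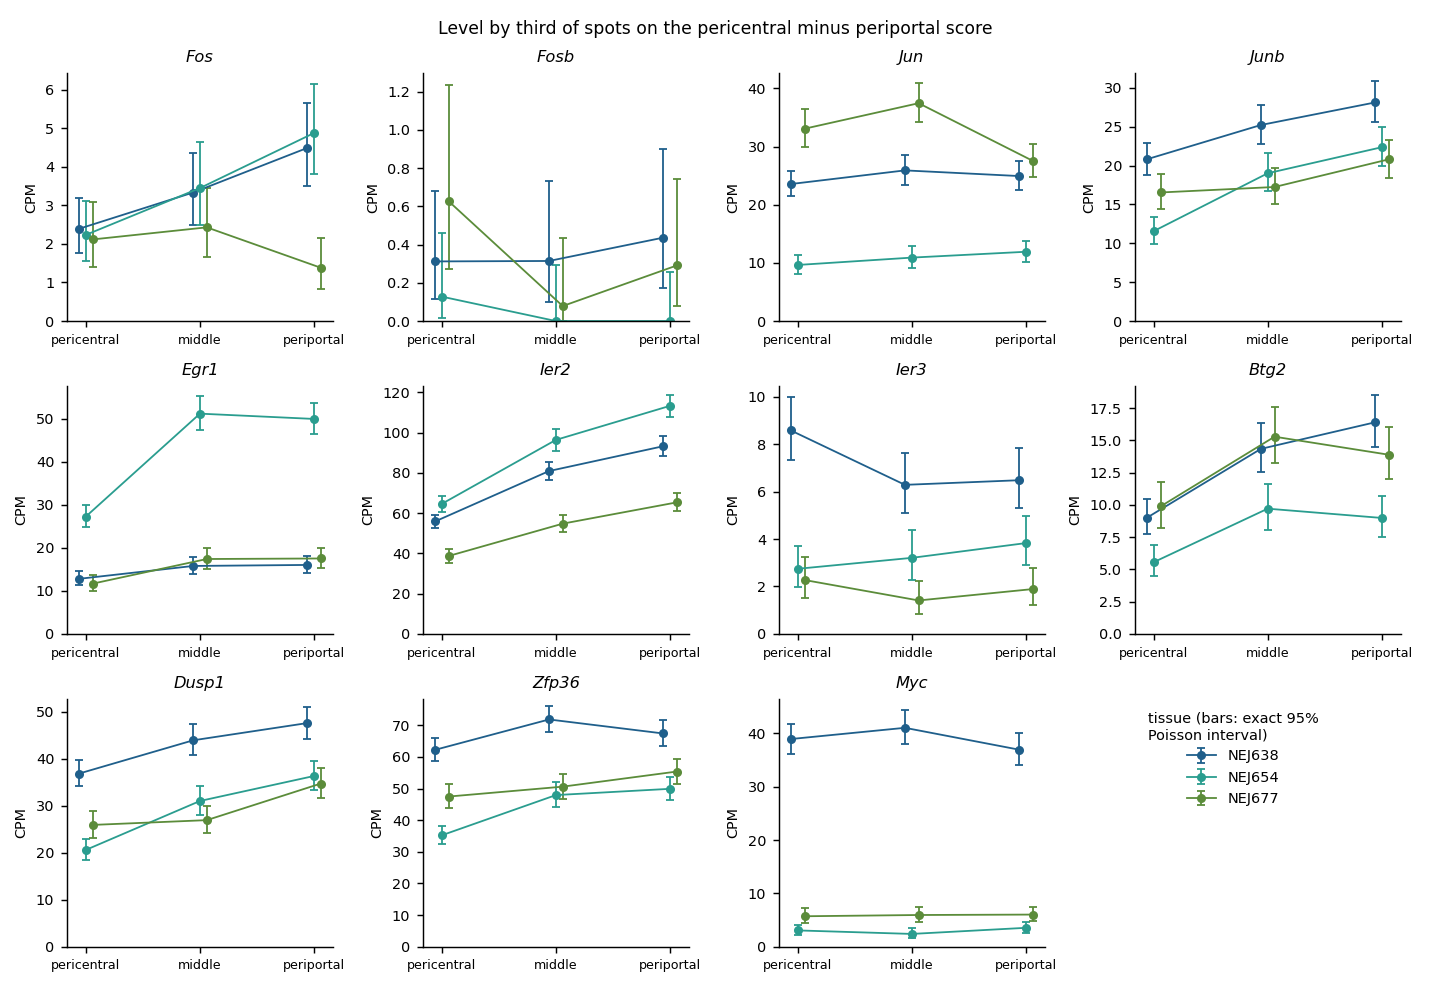
Level in CPM (y axis) in the pericentral, middle and periportal groups of spots (x axis) of NEJ638, NEJ654 and NEJ677, with exact Poisson 95% intervals, for each member and mouse Myc. Ier2 rose over the 3 groups in each tissue, from 64.6 to 113.3 CPM in NEJ654, while Jun and Ier3 had no common direction.

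Other cell types also changed along the lobule. All 4 bile duct markers and 6 of 6 macrophage and 3 of 3 smooth muscle markers were higher in periportal spots, where portal tracts lie. Of 5 erythroid markers, 1 was called in each direction. In pericentral spots 1 of 6 endothelial and 1 of 4 stromal markers were higher. The summed bile duct markers went from 41.9 to 278 CPM in NEJ638, from 23.8 to 136 CPM in NEJ654 and from 22.3 to 153 CPM in NEJ677. The summed macrophage markers went from 229 to 263, from 405 to 550 and from 281 to 458 CPM. Of the 4 hepatocyte markers, Alb (log2 fold change -0.66) and Serpina1c (-0.50) were higher in periportal spots, while Apoa1 (-0.05) and Ttr (0.08) were not called. In spots without any UMI of the bile duct or smooth muscle markers, an alternative chosen after the data were seen, the count of members higher in periportal spots was again 6 of 9, against 5.37% of 11592 genes. A spot without such a UMI can still hold bile duct or smooth muscle cells. The part of these cells, of macrophages, of hepatocyte RNA content and of the perfusion before freezing in the zone differences was not tested. Spot depth also differed in 2 of the tissues, with medians of 14593 UMIs in pericentral and 11499.5 in periportal spots of NEJ638, 18966 and 17062 in NEJ654, and 14535 and 14573.5 in NEJ677. In the spots without bile duct or smooth muscle UMIs, these medians were 12338 and 9599 in NEJ638, and 17599 and 13841 in NEJ654. In NEJ677 they were 11148.5 and 11357.

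**Figure D3:**
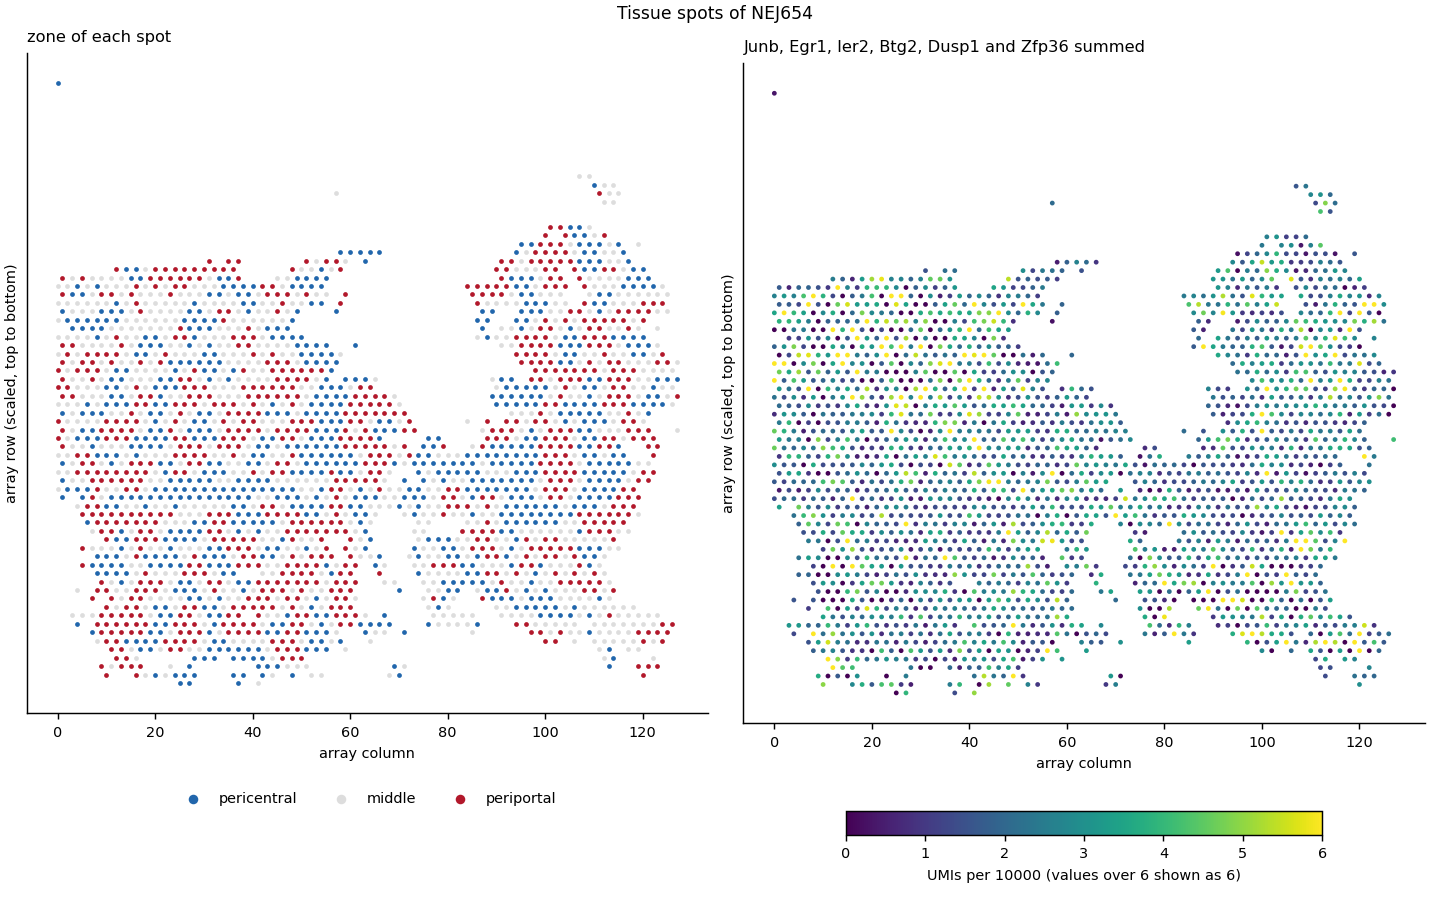
Tissue spots of NEJ654 at their array positions (column on the x axis, row on the y axis), coloured by zone (left) and by the summed UMIs per 10000 of Junb, Egr1, Ier2, Btg2, Dusp1 and Zfp36 (right). Pericentral and periportal spots form patches, and the summed level varies from spot to spot.

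The map of NEJ654 shows the spots behind these sums. The zones alternate over the whole section. Of the other early response lists, the AP-1 partners (0 of 4 tested) and the further zinc finger and nuclear receptor factors (0 of 5) had no gene called between zones in the edgeR test. Among 12 tested feedback inhibitors, Dusp5 was higher in periportal spots (log2 fold change -1.06, adjusted p 0.0183) and Dusp6 in pericentral spots (0.74, adjusted p 0.000116), 2 phosphatases of MAP kinases with opposite directions. Among 16 other early response genes, Ctgf (-1.22), Gadd45g (-1.06), Ier5 (-0.40) and Per1 (-0.35) were higher in periportal spots and Cebpb (0.19) in pericentral spots, with adjusted p values from 0.000201 to 0.0309. None of the 10 upstream kinases and factors was called. Of 10 heat shock genes, Hspa1b (0.86) and Hsp90aa1 (0.45) were called, both higher in pericentral spots.

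Spatial order was described by Moran's I, a measure of how alike adjacent spots are, on the residuals of each gene after the spot totals were taken into account. Of 70 combinations of member and tissue, 55 had the 200 UMIs asked for, and 12 of these reached 0.05. In NEJ146, whose array positions were taken from the same barcodes of the other sections, these were, as mean ± SD of 4 sections, Ier3 (0.151 ± 0.0274), Egr1 (0.0916 ± 0.0288), Junb (0.0871 ± 0.0158), Btg2 (0.0731 ± 0.0410) and Ier2 (0.0507 ± 0.0129), 5 of 8 tested, where 22.1%, 24.9%, 26.5% and 23.4% of all genes reached the value in its sections 1 to 4. Btg2 and Ier2 were at 0.05 or more in 2 of the 4 sections, and the other 3 in all 4. In NEJ634 they were Junb (0.102), Ier2 (0.0919), Ier3 (0.0655) and Egr1 (0.0572), 4 of 8 against a background of 23.6%. In NEJ654 they were Egr1 (0.0788), Btg2 (0.0623) and Ier2 (0.0578), 3 of 7 against 7.17%. No member reached 0.05 in NEJ687 (0 of 9, background 8.18%), NEJ723 (0 of 8, 6.4%), NEJ638 (0 of 8, 6.47%) or NEJ677 (0 of 7, 5.03%). Which combinations passed depended on the measure. With neighbours within 2 steps in place of adjacent spots 6 combinations passed, namely Btg2, Egr1, Ier3 and Junb in NEJ146 and Ier2 and Junb in NEJ634, and none in NEJ654. With log values in place of residuals 12 passed, among them Jun (0.0554), Zfp36 (0.0743) and Btg2 (0.0534) in NEJ687 and Ier2 (0.104) in NEJ723, while Egr1 was the only member left in NEJ654.

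Correlations between members over spots were low. The mean correlation of residuals over the 45 pairs of members was 0.0361 over the 7 tissues, and went from 0.0139 in NEJ638 to 0.0725 in NEJ634. The highest pair was Egr1 with Ier2, at a mean of 0.0799 and above 0 in 7 of 7 tissues. Next came Junb with Ier3 (0.0766), Ier3 with Btg2 (0.0729) and Junb with Egr1 (0.0722). These correlations are over spots, which share a library and a depth, and few UMIs were counted per spot.

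The genes with the pattern over spots most like the summed members, among 8014 ranked by the mean correlation over 7 tissues, were S100a6 (0.196), Clu (0.195), Spp1 (0.193), Actg1 (0.181), Tmsb10 (0.176), Krt8 (0.173), Tmsb4x (0.171) and Krt18 (0.163). The median of all ranked genes was 0.0104. Of these, Spp1 is in the bile duct list used here, and Krt7 of that list had rank 36. Krt8 and Krt18 are keratins of epithelial cells, and others encode cytoskeletal proteins of many cells. The summed members correlated with the summed bile duct markers Krt19, Krt7, Sox9 and Spp1 at a mean of 0.199, from 0.0736 in NEJ677 to 0.387 in NEJ634, and with the smooth muscle markers at 0.106, above 0 in 7 of 7 tissues for both. With the stromal markers the mean was 0.148, above 0 in 5 of 7 tissues. In NEJ146 it was 0.343 for stromal and 0.335 for bile duct markers, and in NEJ634 0.361 and 0.387. Col3a1, Col1a1 and Col1a2 of the stromal list had ranks 21, 22 and 24, above Krt7. The likeness was thus not particular to bile duct markers.

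Spots rich in bile duct markers were then set against all other tissue spots, a description that was chosen after the correlations were seen. Spots rich in stromal markers were not compared in this way. Spp1 alone made up 51.1 to 94.8% of the summed level of these markers in the 7 tissues and was already among the genes most like the members, so that this comparison restates that likeness in part. In the 10% of spots with the most bile duct UMIs for their depth, 5 of the 7 members with at least 10 CPM (Junb, Egr1, Ier2, Btg2 and Dusp1) were higher in all 7 tissues, against 8.69% of 7982 genes. Over tissues and genes, the median ratio was 1.27 for these 7 members and 1.02 for all genes tested. Egr1 was 2.30-fold higher in NEJ146, 2.10-fold in NEJ634, 1.79-fold in NEJ638, 1.38-fold in NEJ677, 1.37-fold in NEJ687, 1.21-fold in NEJ654 and 1.01-fold in NEJ723. Junb was 2.08-fold higher in NEJ146 and 1.91-fold in NEJ634, and between 1.03-fold and 1.42-fold in the other tissues. Ier3, which lay below 10 CPM on average, was also higher in all 7 tissues, 3.29-fold in NEJ146, 3.08-fold in NEJ634 and between 1.39-fold and 1.86-fold elsewhere. The scarce Fos and Fosb went both ways over the tissues, from 0.596 to 2.93 for Fos and from no UMI in the richest spots of NEJ654 to a ratio of 3.90 in NEJ638 for Fosb. Jun and Zfp36 were higher in 5 of 7 tissues, and mouse Myc in 4 of 7. Depth differed between these spots too, with a median of 22130.5 UMIs in the richest spots and 16472 in the others in section 1 of NEJ146, and 24847 and 29603 in NEJ634. Its part in these ratios was not tested. With Spp1 left out and the richest 10% taken by Krt19, Krt7 and Sox9 alone, an alternative added after the data were seen, 5 of the 7 members (Jun, Junb, Egr1, Ier2 and Btg2) were higher in all 7 tissues, against 6.14% of all genes. The median ratio was 1.18 for the members and 1.01 for all genes. Some ratios were close to 1, with Junb at 1.005 in NEJ677 and 1.01 in NEJ723, and Jun at 1.03 in NEJ723. Any ratio above 1 was counted as higher, without regard to counting error. Dusp1 was at a ratio of 0.855 in NEJ634, its only tissue below 1. Krt19, Krt7 and Sox9 are scarce. In NEJ687 144 of the 446 spots taken held a UMI of any of them, with 129 of 270 in NEJ677. The spots taken were shallow in these tissues, with a median of 182.5 UMIs against 12612 in the others in NEJ687 and 281 against 14579 in NEJ677. In the other tissues the median of the spots taken was 14185 UMIs or more, and the part of depth in these ratios was not tested. With spots that held at least 1 such UMI set against those without, which changes the markers and the class together, 3 of the 7 members (Egr1, Ier2 and Btg2) were higher in all 7 tissues, against 5.22%.

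**Figure D4:**
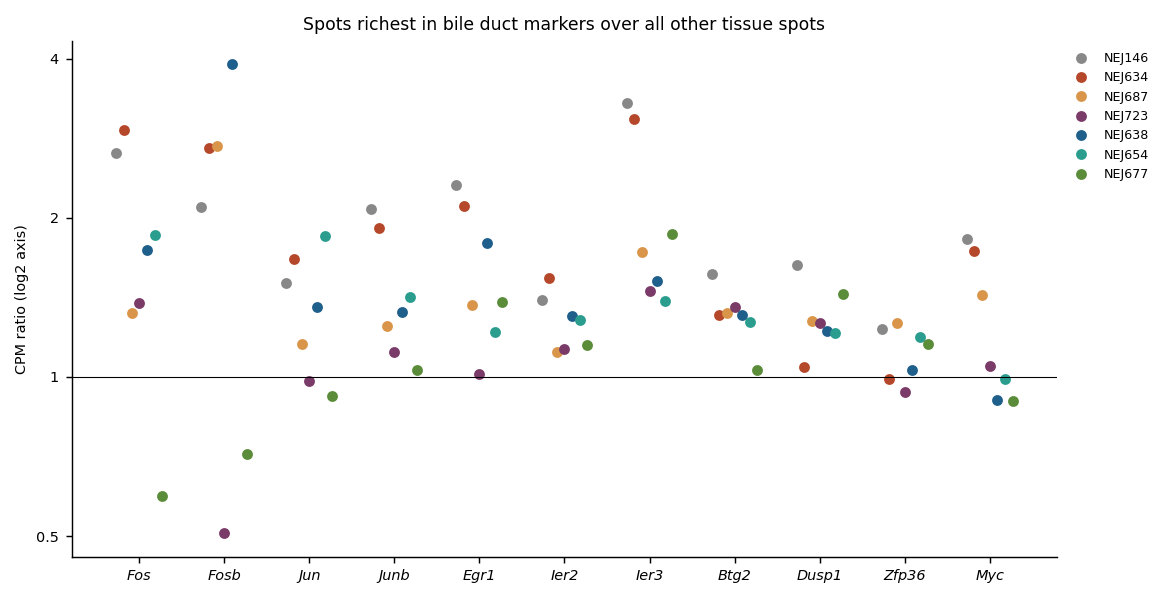
Ratio of CPM in the 10% of tissue spots richest in bile duct markers over all other tissue spots (y axis, log2 scale) for each member and mouse Myc (x axis), with 1 point per tissue. Junb, Egr1, Ier2, Ier3, Btg2 and Dusp1 lie above 1 in all 7 tissues; Fosb in NEJ654 had no UMI in the richest spots and is not drawn.

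To ask whether the members followed the edge of the called tissue, spots within 2 steps of an off-tissue spot were compared with the interior in the 6 tissues with a deposited tissue call. Spots called off tissue held 7864 to 12424 UMIs on average, against 12882 to 29913.3 in tissue spots, so this margin is the edge of the call and may not be the edge of the tissue. No member was called by edgeR's quasi-likelihood test, 0 of 10 against 0.101% of all 14813 genes. Fos had the lowest unadjusted p, 0.0476, with a log2 fold change of 0.27 ± 0.13 (SE) towards the margin and an adjusted p of 0.466. It was at 3.99 CPM in margin and 2.83 CPM in interior spots of NEJ638, at 4.05 and 3.28 CPM in NEJ634, at 3.89 and 3.19 CPM in NEJ654 and at 2.58 and 1.58 CPM in NEJ723. In NEJ687 (4.20 and 4.21 CPM) and NEJ677 (1.56 and 2.09 CPM) it was not higher at the margin. The members' median log2 fold change was 0.03, against -0.02 over all genes. None of the other early response lists had a gene called, while the globin gene Hbb-bt (0.73, adjusted p 0.0385) and the neutrophil gene S100a8 (0.56, adjusted p 0.023) were higher at the margin by the same edgeR test.

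**Figure D5:**
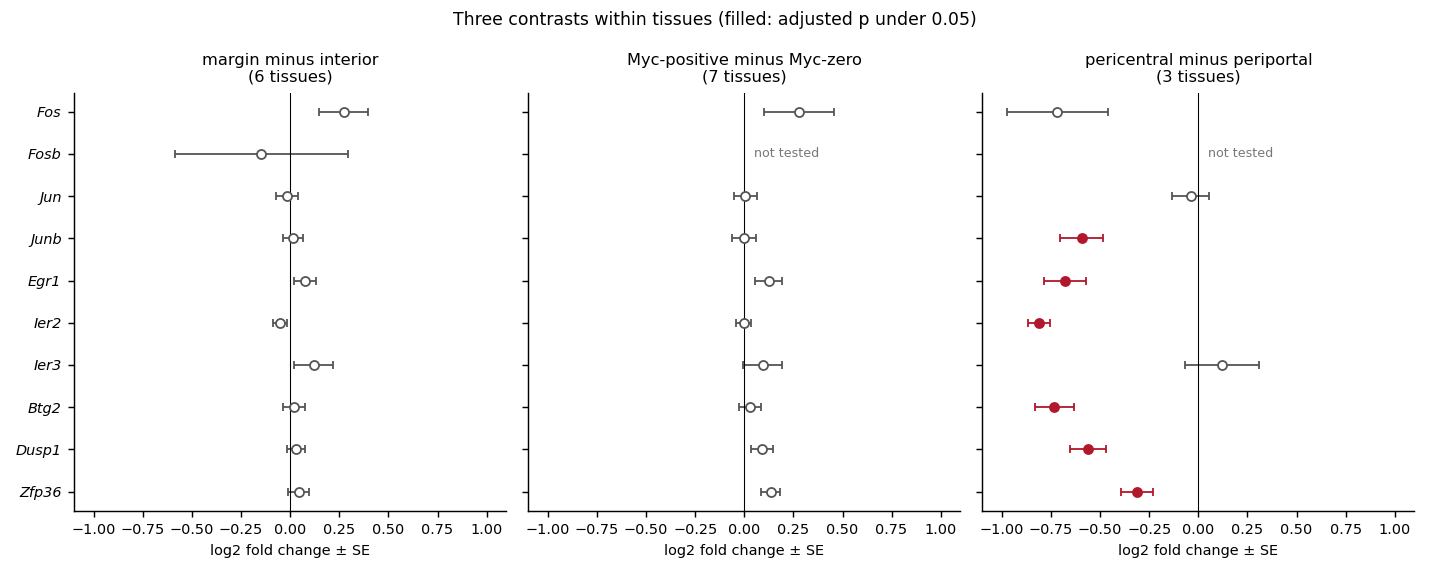
Log2 fold change ± SE (x axis) of each member (y axis) in the 3 comparisons within tissues, with filled points where the adjusted p was under 0.05. No member is filled for margin or Myc, and 6 are filled for the zones, from -0.81 for Ier2 to -0.31 for Zfp36; Fosb was not tested in 2 of the panels.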

How the data were processed

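The matrices deposited by the authors hold UMI counts of each gene in each spot, without normalisation. The submitters' processing notes name Space Ranger 1.3 and mm10 for 6 tissues and Cell Ranger 6.0 for NEJ146, whose build is not given in the sources used here. Tissue spots were those of the deposited position files and, for NEJ146, spots with at least 8000 UMIs. No doublet caller was run. Counts were summed over tissue spots and given as CPM with exact Poisson 95% intervals, which cover counting error only. The SD of NEJ146 covers sectioning and library preparation of 1 tissue, so no test was run between tissues. The 2-fold counts used log2(CPM + 1) and genes that averaged 10 CPM or more. For the comparisons within tissues, UMIs were summed per tissue and class of spots and tested with edgeR 4.0.16 (R 4.3.3; TMM, filterByExpr, quasi-likelihood test, tissue as a block), adjusted by Benjamini-Hochberg over all genes tested, with a threshold of 0.05. Each tissue was 1 replicate, and the labels do not tie tissues to mice. Myc-positive and Myc-zero spots were drawn in equal numbers in 20 bins of spot total. Moran's I and correlations used Pearson residuals limited to 10. The edgeR comparisons were tested on simulated data with 50 genes changed at each fold. At 1.2-fold, 22 were recovered for margin, 23 for Myc and 6 for zone, and at 2-fold 41, 49 and 42. False calls among the other genes numbered 23, 21 and 7. Small changes could thus be missed. Alternatives were DESeq2 1.42.0, other filters, scalings and spot classes, and leaving out each tissue or section. Text names all members and Myc, the 8 genes most like the summed members, and up to 5 called genes of each other list. The members, lists and rules were chosen with earlier results of these data known. Python 3.11.15, numpy 2.4.6, scipy 1.17.1 and pandas 2.3.3 were used.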

Additional observations from a re-analysis of the deposited data

Results flagged for a closer look

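In a group of 4 sections, chance alone sets 1 value apart in about 1 in 20 groups. Each member and Myc was looked at in this way. In NEJ146, section 1 lay apart from the other 3 for Fosb, at 0.298 CPM, and section 4 for Ier2, at 46.1 CPM. For Fosb this was within counting error. Section 1 held 25 UMIs, with an interval of 0.193 to 0.440 CPM that overlapped those of the other sections, such as 0.127 to 0.340 in section 4.

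The members were also counted in spots that the position files call off tissue. Their summed UMIs there were 986 in NEJ687, 7061 in NEJ634 and 5254 in NEJ723, and 4377 in NEJ638, 6516 in NEJ654 and 4968 in NEJ677. This was 7.06 to 38.2% of the members' UMIs, close to the 6.81 to 43.0% of all UMIs that lay off tissue. Summed over the members, the level off and on tissue was 203 and 230 CPM in NEJ634, 227 and 272 CPM in NEJ638, 201 and 229 CPM in NEJ723, 203 and 248 CPM in NEJ654, 193 and 217 CPM in NEJ677, and 235 and 226 CPM in NEJ687.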

How the results depend on the processing

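In the margin, Myc and zone comparisons, no result with a call changed its direction under an alternative. In the bile duct comparison, the ratio of Dusp1 in NEJ634 went from 1.04 to 0.855 in the richest spots without Spp1. With any UMI of Krt19, Krt7 or Sox9 it was 0.918, and Junb in NEJ723 went from 1.11 to 0.858. The number of member and tissue combinations with a Moran's I of 0.05 or more, 12, became 6 with neighbours within 2 steps. The number of members higher in all 7 tissues in spots rich in bile duct markers, 5, was 5 again without Spp1. There Jun took the place of Dusp1, and most of the richest spots in NEJ687 and NEJ677 held no UMI of Krt19, Krt7 or Sox9. The number was 3 in spots with any UMI of these genes, where markers and class changed together. The number of all genes called between margin and interior, 15, became 238 without the filter on low counts, 50 with 1 step, 33 with 3 steps, and 0 (without NEJ634) to 41 (without NEJ687) when each tissue was left out. The number called between Myc classes, 2, became 0 by DESeq2, 142 without the filter, 0 without NEJ146, 261 without depth matching, and 0 to 66 when each tissue was left out, highest without NEJ638. The number called between zones, 2086, became 943 by DESeq2, 1246 in spots without bile duct or smooth muscle UMIs, and 1143 to 1906 when each tissue was left out. Between zones, the count of members called was 5 to 7 over the settings, with Zfp36 lost by DESeq2 and without NEJ654, and Fos gained without the filter and without NEJ677. No member was called between margin and interior or between Myc classes by DESeq2 either, with 0 and 1 members at an unadjusted p under 0.05 (1 and 1 by edgeR). The count of members whose range passed 10 times the section spread, 5, was 5 to 6 when each section was left out, 4 without NEJ146, and 7 at 5 times the spread. With TMM size factors, 47 of 70 levels moved beyond their error, and Egr1 in NEJ654 remained 2.52-fold above the next tissue. Spots without bile duct or smooth muscle UMIs, a zone score without Pck1 (6 members called) and the duct spots without Spp1 were alternatives chosen after seeing the data. Low counts of Fosb, Fos and Ier3, and of mouse Myc outside NEJ638, limit what could be detected.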
